A study of Homo sapiens with 6 samples.

Results

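Exons that can end at either of 2 donor sites lying more than 50 bases apart were examined in LNCaP cells. Of the 1359 alternative 5' splice site (A5SS) events in the deposited table, 824 events in 551 genes had a long exon that exceeded the short exon by over 50 bases, and the other 535 differed by at most 50 bases. All 4 splicing tables together held 52140 events. The choice used exon positions only and no read count.

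LNCaP is a prostate cancer cell line of human origin that responds to androgen. The 3 libraries labelled KDM4B (replicates 1, 2 and 4) came from LNCaP cells stably carrying Flag-tagged wild-type KDM4B, a histone lysine demethylase, and the 3 vector libraries (replicates 1, 2 and 3) from cells with the empty plenti6 vector. All cells had been grown in 10% serum and then held for 3 days, up to harvest, in a medium whose serum (10%) the labels call CFBS. The labels do not say that replicates were separate cultures or clones, so p-values measure only the spread between these libraries, which may be technical.

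An intron begins at a 5' splice site, also called the donor site, which the U1 small nuclear ribonucleoprotein (snRNP) recognises first and which the U6 snRNA pairs with later. When a transcript carries 2 candidate donors for the same acceptor, use of the upstream donor gives the short exon and use of the downstream donor leaves an extension, otherwise intronic, in the RNA. SR proteins, hnRNPs and U1-associated proteins such as TIA1 and the LUC7-like proteins are known to shift the choice. An extension whose length is not a multiple of 3 changes the reading frame when it lies in coding sequence.

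The extensions ran from 51 to 8799 bases with a median of 216.5 bases, and 50% of them lay between 105 and 438.5 bases. There were 193 extensions of 51 to 100 bases, 199 above 100 and up to 200, 258 above 200 and up to 500, and 174 above 500 bases. Their length was a multiple of 3 in 335 events (40.7%), against 302 (56.4%) of the 535 events with a shorter extension. The intron that starts at the upstream donor had a median length of 2355 bases, of which the extension took a median of 11.5%; in 159 events it took over 50% of that intron. RefSeq transcripts carried both forms in 500 events. In 178 events the long form was present only in transcripts assembled from reads, in 29 the short form was, and in 117 both were. Most genes (403) had 1 event, 148 had at least 2 and 12 had at least 5, led by ATP5J with 12, MAMDC4 and ECHDC2 with 9 each, and METTL23 and NMRAL1 with 7 each. Events of a gene can repeat the same donors with another acceptor: the 824 events used 709 distinct donor pairs, 100 of which occurred more than once, so events are not independent of one another.

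Each event carried 1 read count per library, in which the long and the short form are joined. What these counts are made of was looked at in 43 of the 824 events. There, reads of at least 1 of the event's junctions could be recovered from skipped exon (SE) and mutually exclusive exon events that share exons. Both junctions were recovered in 8 of the 43. Recovered junctions never had more reads than the event (0 of 43 events). The short form's junction, recovered in 37 events, held a median of 0.728% of the event's reads and under 10% in 30 of them. In 9 events with an extension of up to 50 bases it held a median of 50%, with shares from 0.602% to 100%. That median is the share of ATP5J2, whose event had 3, 1 and 0 against 4, 0 and 2 reads, so it rests on few reads. Among the 37 events DAG1, which encodes the dystroglycan of the cell surface, had the highest share. At its extension of 140 bases the short junction had 97, 99 and 99 reads in the libraries labelled KDM4B and 102, 115 and 106 in the vector libraries, which made up 94.8% of the event's reads. RACGAP1, a GTPase-activating protein of cell division, had 78, 92 and 92 against 87, 76 and 78 short junction reads at an extension of 70 bases (75% of the event's reads). ARIH2, a ubiquitin ligase of the ariadne family, stood at the other end. Its extension of 2974 bases had 1199, 1326 and 1283 against 2030, 2010 and 1975 event reads, of which the short junction held 0, 1 and 1 against 1, 1 and 1. In these 37 events the counts at the longest extensions thus held few short-form junction reads, and the plot of junction share by length shows the same. This does not mean that the long form's junction held the rest. In the 14 events where it was recovered, its share ran from 0.0211% in RDH11 to 69.5% at another event of DAG1. RDH11, at 496 bases, had 0% on the short junction as well, so nearly all its reads lay on neither. With another acceptor, the long junction of ARIH2 had 0, 0 and 0 against 4, 0 and 0 reads (0.0427% of that event's reads). The recovered junctions also join exons that another event skips, so the 43 events do not stand for the rest. Among 11 events, 10 of them beyond 50 bases, whose recovered form and remaining reads were deep enough for a test of the share of the short form, 0 passed with edgeR (lowest adjusted p = 0.587, 0 events with an unadjusted p under 0.05).

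**Figure D1:**
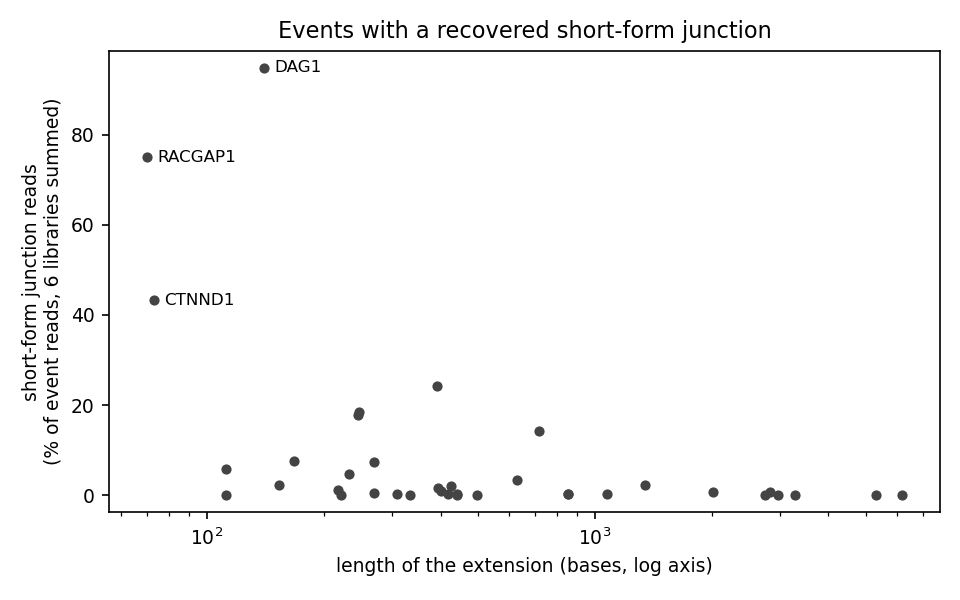
Reads on the short form's junction as a percentage of all reads of the event, summed over the 6 libraries, against the length of the extension in bases (log axis), 1 point for each of the 37 events where this junction could be recovered. DAG1, RACGAP1 and CTNND1 stand above 40%, and 30 of the points lie under 10%.

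For every event the count was therefore set against the summed SE counts of the same gene, as event reads per 100 SE reads. A higher ratio means a higher event count relative to the summed counts of the gene's skipped exon events. It does not say which of the 2 donors was used more, and it also moves when exon skipping elsewhere in the gene changes. SE events of a gene can share junctions, so their sum can count a read more than once. Ratios are therefore compared between libraries and not between genes. Event counts summed to 197254 to 208720 reads in the KDM4B group and 239239 to 248683 reads in the vector group, which came to 13.9, 14.1 and 13.9 against 14.5, 14.8 and 14.5 reads per 1000 SE reads. The events with shorter extensions stood at 3.90, 3.85 and 3.86 against 3.89, 3.89 and 3.84 per 1000. Retained introns stood at 22.8, 23.0 and 23.2 against 25, 26.1 and 25.9 per 1000. These sums weight events by their reads; the median log2 change per event was 0.01 over the tested events beyond 50 bases.

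The KDM4B transcript itself had 26.33, 27.17 and 25.76 FPKM (fragments per kilobase of transcript, scaled to library size) under the KDM4B label and 24.73, 25.15 and 25.28 with the vector, which did not pass the limma test on FPKM as deposited (log2 change 0.07, adjusted p = 0.113) and did after median-of-ratios scaling (0.31, adjusted p = 1.93e-05). Ribosomal RNA took 10.5%, 8.14% and 10.2% of all FPKM under the KDM4B label and 0.473%, 0.144% and 0.147% in the vector libraries, and the noncoding RN7SK had 166, 115 and 164 against 15.8, 3.96 and 2.81 FPKM. Library titles of the KDM4B group also carry a suffix, D6092, that the vector titles lack. Anything that differed between the groups in RNA preparation cannot be told apart from the label, and its part in the results below was not tested. All 10 LNCaP markers were present at 18.9 to 2260 FPKM. Of 11 markers of other cell types 8 were in the table, summing to 5.51 to 5.98 FPKM against 5.63 to 6.21 FPKM.

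The ratio could be tested in 701 events of 462 genes; 76 events lay in genes with no SE event and 47 had under 10 reads on average in the event or in the SE sum. With edgeR's quasi-likelihood test, adjusted over all 1093 tested A5SS events, 40 of the 701 events passed an adjusted p of 0.05 (5.71%), 20 with a higher and 20 with a lower ratio under the KDM4B label (2.85% each). Over all tested A5SS events 4.39% passed, 2.01% higher and 2.38% lower. The share was 2.04% (8 of 392 events) for extensions of up to 50 bases, and 15.3% for retained introns tested in the same way in a fit of their own; these shares were not compared by a test. The 40 events lay in 30 genes, 14 with higher events only, 15 with lower events only and MRPL55 with one of each, and used 35 donor pairs. In all 40 the ratios of the 2 groups did not overlap, as was so for 157 of the 701 events (22.4%), 18.9% of all tested A5SS events and 12.8% of those with extensions of up to 50 bases. The count depended on single libraries: without replicate 1 or 4 of KDM4B 15 and 26 events passed, of which 15 and 21 were among the 40, and without replicate 1, 2 or 3 of the vector 22, 10 and 19 passed, of which 22, 10 and 18 were among the 40. Of the 40 calls 9 held in all 6 fits that left out a library and 4 held in none. With DESeq2 the count was 14, all of them among the 40: 2 events each of NBPF1 and TAF1D and 1 each of LTN1, C8orf59, GTPBP2, MAMDC4, SYTL1, C16orf62, RFC5, TUBGCP6, SAMD11 and EVA1B. Every other call below was lost with DESeq2.

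Changes were mostly small. Over the 701 events the log2 change had a median of 0.01, 356 events lay above 0 and 345 below, and the 10th and 90th percentiles were -0.29 and 0.33. Over all tested A5SS events the median was 0.00. Only 6 events changed by a log2 of at least 1, of which 4 passed the test, and 24 of the 40 called events changed by under 0.5. Calls went with the number of reads. Events averaged between 10 and 4015 reads per library with a median of 110.8, and the called events had a median of 319.75. The median standard error of the log2 change was 0.27 for the 171 events averaging under 50 reads, of which 4 were called, and 0.07 for the 106 events above 500 reads, of which 16 were called. Small changes in thinly covered events were not detectable at this depth.

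**Figure D2:**
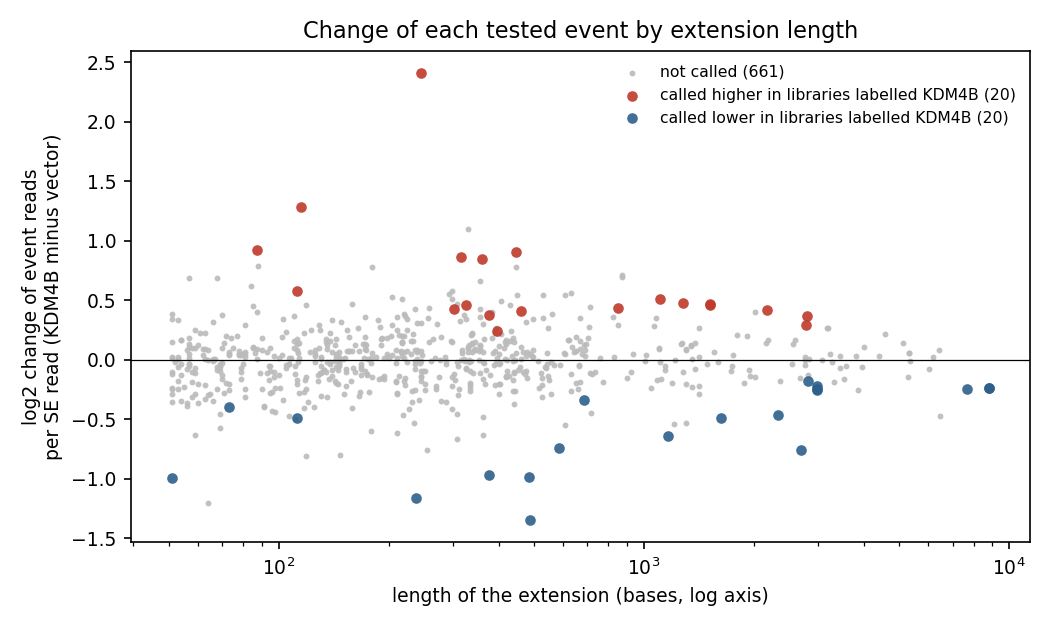
The log2 change of event reads per SE read (libraries labelled KDM4B minus vector libraries, vertical axis) against extension length in bases (log axis) for the 701 tested events. The 20 events called higher and the 20 called lower are coloured. The highest called event is that of CYB5R3 at 245 bases and the lowest that of EVA1B at 488 bases.

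Calls were more frequent among the longest extensions. Of 145 tested extensions of 51 to 100 bases 1 was higher and 2 lower (2.07%), and of 156 extensions above 100 and up to 200 bases 2 were higher and 1 lower (1.92%), close to the 2.04% of extensions of up to 50 bases. Of 234 extensions above 200 and up to 500 bases 9 were higher and 4 lower (5.56%), and of 166 extensions above 500 bases 8 were higher and 13 lower (12.7%). Reads moved with length. The median event averaged 64.5, 65.8, 104.8 and 382.8 reads per library in these 4 classes, and 15.1% of the events above 500 reads were called against 2.68% of those under 100 reads. The 10th and 90th percentiles of the change were -0.35 and 0.23 at 51 to 100 bases and -0.25 and 0.35 above 500 bases. Whether length bears on the calls beyond its tie to read number was not tested. At the edge of the choice, 5 tested events with an extension of exactly 50 bases changed by -0.70 to 0.44 and 12 with exactly 51 bases by -0.99 to 0.38.

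**Figure D3:**
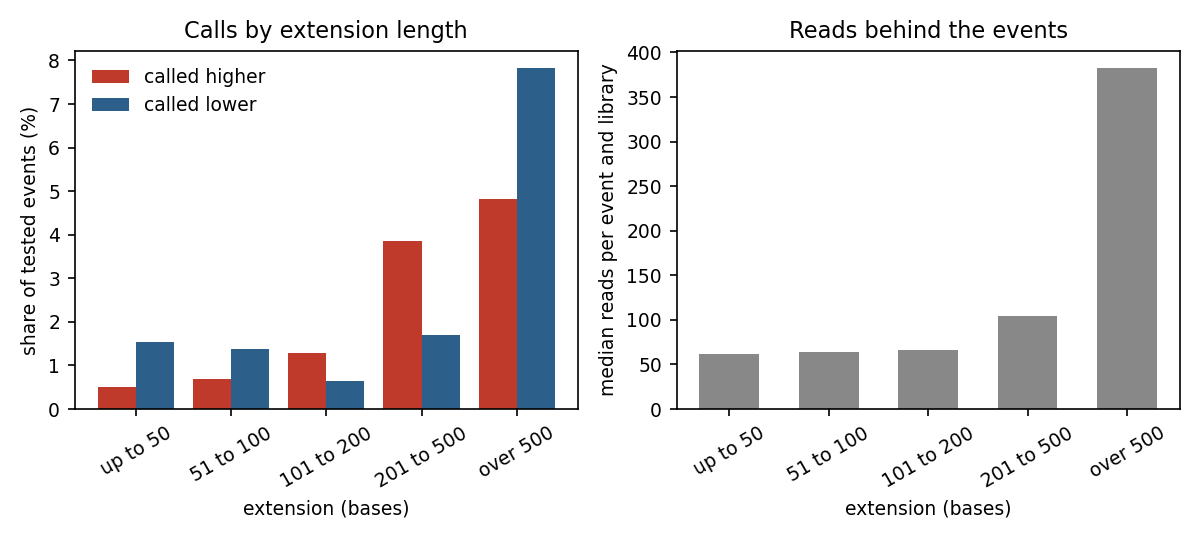
Left, the percentage of tested events called higher or lower in the libraries labelled KDM4B for 5 classes of extension length in bases. Right, the median of the events' mean reads per library in the same classes, which is largest, at 382.8, for extensions above 500 bases, the class with the largest share of calls (12.7%).

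Other properties of the called events were as follows. Events whose 2 forms were known only from assembled transcripts were called in 15 of 104 cases (14.4%). These lay in EVA1B, SAMD11, TUBGCP6, C16orf62, MTRF1L, MAMDC4, VPS51, ARIH2 and TAF1D, with an event each of ECHDC2 and NBPF1. Events with both forms in RefSeq were called in 14 of 405 (3.46%). Extensions in frame (a multiple of 3) gave 6 higher and 6 lower of 281 (4.27%), and those out of frame 14 and 14 of 420 (6.67%). Extensions covering over 50% of the intron gave 6 higher and 8 lower of 145 (9.66%), against 14 and 12 of 556 (4.68%) for the rest. These classes overlap with read number and with each other and were not compared by a test. Positions below are those of the files, counted from 1. The submitters' processing notes name GRCh38, yet on that build only 75 of the 822 events with a matched gene identifier (9.12%) fall inside their gene, so the build of these positions is uncertain. No source used here states whether counting used the strand, so reads of overlapping antisense genes cannot be told apart.

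Among the falls, the largest was in EVA1B (chromosome 1, minus strand, long exon 36788572 to 36799050, extension 488 bases). Both of its forms were known only from assembled transcripts, and its short exon ran from 36789060 to 36799050. The event had 51, 73 and 68 reads in the libraries labelled KDM4B and 310, 319 and 317 in the vector libraries. The SE sums were 35, 64 and 59 against 97, 118 and 90. Both counts were lower, the event by more, and the ratio fell from 314 ± 41.2 to 125 ± 17.9 event reads per 100 SE reads (SD, n = 3 each; log2 change -1.35, SE 0.204, edgeR adjusted p = 0.00304). RFC5, a subunit of the replication factor C clamp loader, had an extension of 238 bases (chromosome 12, plus strand, 118455495 to 118455858) with 12, 17 and 27 against 57, 63 and 51 reads. No library of one group reached the other, and the ratio fell by 1.17 on the log2 scale (4.40 ± 1.54 against 10.0 ± 1.30, SE 0.246, edgeR adjusted p = 0.0199, n = 3 each).

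SAMD11, a nuclear protein with a SAM domain, was different in that its event reads overlapped, at 166, 198 and 168 against 159, 251 and 189 (chromosome 1, plus strand, 851130 to 851813, extension 484 bases). Its SE sums were 1315, 1709 and 1415 against 789, 903 and 814, higher in every library labelled KDM4B. The ratio fell from 23.7 ± 3.85 to 12 ± 0.536 (SD, n = 3 each). The log2 change was -0.98 (SE 0.129, edgeR adjusted p = 0.00208), since the event reads did not rise with the SE sums. The FPKM of SAMD11 were higher as well, at 14.33, 18.16 and 15.53 against 7.79, 8.63 and 7.36. Against the gene's FPKM the event changed by -1.08. TUBGCP6, a component of the gamma-tubulin ring complex that nucleates microtubules, had an extension of 1161 bases (chromosome 22, minus strand, 50695511 to 50696730). Its event had 223, 243 and 197 against 425, 466 and 458 reads, with every vector library above every library labelled KDM4B. The ratio fell from 11.0 ± 0.616 to 7.04 ± 0.578 (SD, n = 3 each; log2 change -0.64, SE 0.088, edgeR adjusted p = 0.00208). EVA1B, SAMD11 and TUBGCP6 kept their calls in all 6 fits that left out a library, and RFC5 in 4.

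The other large falls held in 1 or 2 of those 6 fits. WDR60, an intermediate chain of the dynein motor of cilia, had 187, 204 and 179 against 288, 292 and 276 event reads at an extension of 2688 bases (chromosome 7, plus strand, 158695067 to 158697974; log2 change -0.76, edgeR adjusted p = 0.0302). Its SE sums of 72 to 95 reads were small, and against the gene's FPKM the change was -0.32. C16orf62, which encodes a subunit of an endosomal sorting complex, had 49, 44 and 44 against 85, 66 and 81 reads at 586 bases (chromosome 16, plus strand, 19559277 to 19559922; -0.75, edgeR adjusted p = 0.0209) with SE sums between 3020 and 3252 in all 6 libraries. Here the SE sums of the groups overlapped and the event reads did not. MTRF1L, a release factor of mitochondrial translation, had 53, 61 and 54 against 100, 100 and 106 reads at 377 bases (chromosome 6, minus strand, 153303992 to 153311230; -0.97, edgeR adjusted p = 0.0302), with SE sums of 80 to 113. MAPK8IP3, a scaffold of the JNK pathway, had 696, 718 and 671 against 772, 798 and 769 reads at 1627 bases (chromosome 16, plus strand, 1793336 to 1795104; -0.49, edgeR adjusted p = 0.0234). Its SE sums of 466, 449 and 526 against 379, 379 and 392 went the opposite way.

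VEGFA, the vascular endothelial growth factor, whose isoforms arise by alternative splicing, had 3 tested events. At the extension of 51 bases (chromosome 6, plus strand, 43748469 to 43748591) it had 17, 16 and 8 against 98, 93 and 68 reads, with SE sums of 719, 650 and 729 against 2423, 2178 and 2006. The groups did not overlap in either count, and the ratio fell from 3.90 ± 0.457 to 1.97 ± 0.761 (SD, n = 3 each; log2 change -0.99, SE 0.254, edgeR adjusted p = 0.047), a call kept in 1 of the 6 fits. The extension of 69 bases of the same exon had 2, 8 and 1 against 21, 14 and 18 reads and overlapping ratios (-0.57, adjusted p = 0.692). Its long assembled extension of 1885 bases had 491, 529 and 579 against 2020, 1915 and 1814 reads (-0.19, adjusted p = 0.349). The FPKM of VEGFA were 24.4, 24.28 and 24.88 against 80.48, 73.71 and 72.2, lower under the KDM4B label as well.

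Other lower events were small in size and, in part, deeply covered. ARIH2 was called at all 3 acceptors paired with its extension of 2974 bases (chromosome 3, plus strand, 48962151 to 48965246), with log2 changes of -0.25, -0.25 and -0.22 and edgeR adjusted p-values from 0.00304 to 0.00663. The event with 1199 to 1326 against 1975 to 2030 reads had ratios of 4.52, 4.64 and 4.71 against 5.47, 5.36 and 5.35. The groups did not overlap, and the 3 calls held in all 6 fits. They were lost with DESeq2 (adjusted p from 0.0601 to 0.130) and with the gene's FPKM as reference (limma adjusted p from 0.0747 to 0.123), while against the most-read SE event the changes were larger, -0.65 to -0.62. The 3 events share their donors and have close counts, so they are not separate observations. ECHDC2, a mitochondrial protein of the enoyl-CoA hydratase family, was called at 3 of 9 events, with extensions of 7658 and 8799 bases and changes of -0.24, -0.24 and -0.23 (edgeR adjusted p from 0.0428 to 0.0487). Its longest event had 2882, 3314 and 2982 against 4750, 5157 and 5004 reads. USP4, a deubiquitinating enzyme, changed by -0.47 at 2324 bases (edgeR adjusted p = 0.0229), EWSR1, an RNA-binding protein, by -0.18 at 2813 bases (adjusted p = 0.0386), and CALD1, the actin-binding caldesmon, by -0.34 at 687 bases (adjusted p = 0.0487). Of the 6 fits that left out a library, the calls of ECHDC2 and USP4 held in 2, that of EWSR1 in 1 and that of CALD1 in none. With DESeq2 the adjusted p was 0.396 to 0.422 for ECHDC2, 0.0589 for USP4, 0.437 for EWSR1 and 0.249 for CALD1. Against the most-read SE event EWSR1 changed by -0.08 and CALD1 by -0.82.

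Of the rises, FXYD3, a regulator of the sodium-potassium pump, had the largest among events averaging at least 20 reads (chromosome 19, plus strand, 35613669 to 35613858, extension 115 bases). Its event reads were 29, 27 and 17 against 24, 25 and 28, which overlap, while the SE sums were 64, 68 and 68 against 181, 166 and 169. The ratio rose from 15.0 ± 1.66 to 36.7 ± 10.5 (SD, n = 3 each; log2 change 1.28, SE 0.298, edgeR adjusted p = 0.0301), with a call kept in 1 of the 6 fits that left out a library. C8orf59, which acts in ribosome biogenesis, had 5.06, 6.57 and 9.09 against 3.05, 3.47 and 4.37 event reads per 100 SE reads at 87 bases (chromosome 8, minus strand, 86131465 to 86131592), with no overlap of the groups. Its SE sums were near each other, at 1521 to 1562 against 1586 to 1717. The event reads carried the change of 0.92 (SE 0.211, edgeR adjusted p = 0.0277), kept in 2 of the 6 fits.

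LTN1, the ubiquitin ligase listerin of ribosome-associated quality control, had 92, 123 and 120 against 33, 33 and 48 event reads at an extension of 447 bases known only from assembled transcripts (chromosome 21, minus strand, 30308401 to 30309019). Every library labelled KDM4B was above every vector library. The ratio rose from 3.66 ± 0.746 to 6.87 ± 0.674 (SD, n = 3 each; log2 change 0.91, SE 0.171, edgeR adjusted p = 0.0107), a call lost without vector replicate 2. The size depended on the reference: the change was 1.95 against SE events elsewhere in the gene and 1.96 against the most-read SE event. MAMDC4, an endosomal membrane protein, had 144, 160 and 148 against 115, 142 and 78 reads at 361 bases (chromosome 9, plus strand, 139734774 to 139737041). Its ratio rose from 2.12 ± 0.608 to 3.80 ± 0.112 (0.84, SE 0.157, edgeR adjusted p = 0.0101), and the call held in all 6 fits; against the gene's FPKM the change was 1.27. SLC37A4, the glucose-6-phosphate transporter of the endoplasmic reticulum, had overlapping event reads of 40, 59 and 44 against 34, 39 and 46 at 316 bases (chromosome 11, minus strand, 118900942 to 118901445). Its SE sums were 707, 711 and 698 against 1086, 1146 and 973, and the ratio rose by 0.86 on the log2 scale (edgeR adjusted p = 0.0404, kept in 1 of the 6 fits).

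GTPBP2, a GTPase that acts on stalled ribosomes, had far fewer reads in both counts under the KDM4B label. The event had 251, 206 and 236 against 1372, 1191 and 1293 reads at an extension of 1104 bases (chromosome 6, minus strand, 43590370 to 43591532), and the SE sums were 296, 236 and 288 against 2358, 2060 and 2061. The FPKM of GTPBP2 were 12.12, 11.43 and 13.36 against 100.04, 88.92 and 85.77. Relative to the SE reads the event rose from 59.6 ± 2.74 to 84.7 ± 2.67 per 100 (SD, n = 3 each; log2 change 0.51, SE 0.097, edgeR adjusted p = 0.0108). The event count, which joins both forms, was thus lower under the KDM4B label by less than the SE sum; against the gene's FPKM the change was 0.32. The call of GTPBP2 held in 4 of the 6 fits that left out a library. SYTL1, a synaptotagmin-like effector of Rab proteins in secretion, also had both counts lower, with 353, 350 and 327 against 712, 734 and 665 event reads at 851 bases (chromosome 1, plus strand, 27676880 to 27677827). Its ratio rose from 15.0 ± 0.761 to 20.3 ± 1.78 (0.44, edgeR adjusted p = 0.0112, kept in 3 of the 6 fits). The change was 0.74 against SE events elsewhere in the gene, and against its most-read SE event alone it turned to -0.11.

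TAF1D, a subunit of the selectivity factor of RNA polymerase I, was called at 3 of 4 tested events, with log2 changes of 0.37 to 0.47; the other event, at another exon, gave -0.09. The 3 share the upstream donor and the SE sum, and 2 of them both donors, so they are not separate observations. The event with an extension of 1516 bases (chromosome 11, minus strand, 93467791 to 93469470) had 719, 820 and 839 against 859, 842 and 908 reads. Event reads were thus close between the groups, while SE sums of 1528, 1599 and 1656 against 2588, 2413 and 2274 were lower in every library labelled KDM4B. The ratio rose from 36.0 ± 3.50 to 49.7 ± 2.28 (SD, n = 3 each; 0.47, SE 0.086, edgeR adjusted p = 0.0101), kept in 5 of the 6 fits, as was the second event at these donors; the event at 2791 bases was kept in 2. SEC23B, a coat protein of vesicles that leave the endoplasmic reticulum, had 253, 308 and 270 against 354, 331 and 310 reads at 303 bases (chromosome 20, plus strand, 18488188 to 18488616). Its ratio rose by 0.43 on the log2 scale (edgeR adjusted p = 0.0199), with SE sums of 4796 to 5086 against 7633 to 8110. Both counts were lower in every library labelled KDM4B, the SE sums by more. The call held in 4 of the 6 fits and against SE events elsewhere in the gene (edgeR adjusted p = 0.00476). It was lost against the gene's FPKM (limma adjusted p = 0.142) and the most-read SE event (edgeR adjusted p = 0.166).

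Further higher events lay in NBPF1, VPS51, KIAA0141 and CYB5R3, and, described further on, in MRPL55 and ATP5J. NBPF1 changed by 0.48 and 0.42 (edgeR adjusted p = 0.00824 and 0.00208) at extensions of 1282 and 2172 bases, kept in all 6 fits. Against SE events elsewhere in the gene, the event at 2172 bases changed by 0.29 (edgeR adjusted p = 0.354). Against the gene's FPKM, the event at 1282 bases changed by 0.47 (limma adjusted p = 0.0656). Each of them passed under the other of these references. NBPF1 belongs to a multigene family of near-identical copies among which reads may have been split, so its values are uncertain. VPS51, a subunit of a tethering complex of the Golgi, had 931, 1066 and 973 against 770, 802 and 746 reads at 397 bases and ratios of 9.17, 9.21 and 9.38 against 7.81, 7.85 and 7.80. With this small spread a change of 0.24 passed the test (edgeR adjusted p = 0.0139), in 4 of the 6 fits; it was 0.74 against the gene's FPKM and 0.14 against the most-read SE event. KIAA0141 changed by 0.29 (edgeR adjusted p = 0.0487), a call kept in none of the 6 fits, and by 0.49 against its most-read SE event. CYB5R3, a reductase of cytochrome b5, averaged 10 reads and was picked for mention after its values were seen: at 245 bases it had 16, 13 and 23 against 5, 0 and 3 reads (log2 change 2.41, SE 0.532, edgeR adjusted p = 0.0231). This call held in 2 of the 6 fits, over which the change ran from 1.86 to 3.16, and was lost with DESeq2 (adjusted p = 0.171).

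**Figure D4:**
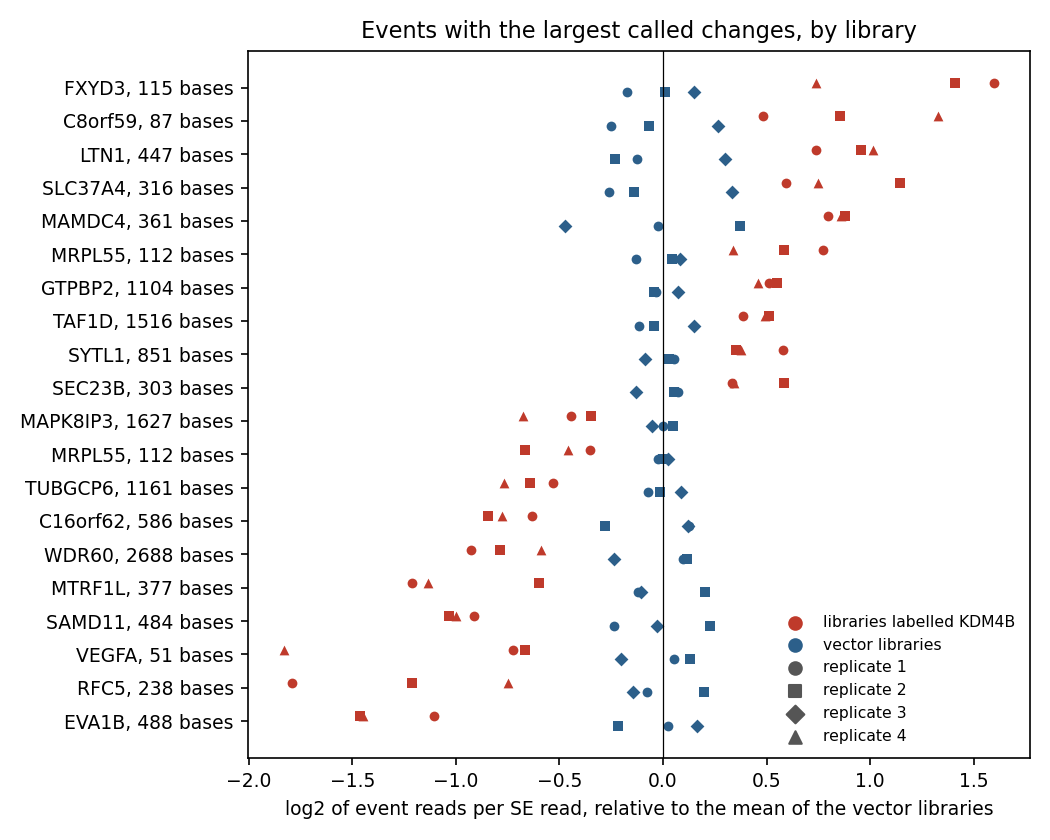
Event reads per SE read in each library on a log2 scale, relative to the mean ratio of the 3 vector libraries, for the 10 largest called rises and the 10 largest called falls with at least 20 reads on average, 1 event per gene and direction. Symbols mark the replicate number; the 2 groups are apart in every row, by most in EVA1B among the events kept in all fits.

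The ratio of the same donor pair could move differently with different acceptors. MRPL55, a protein of the large subunit of the mitochondrial ribosome, has an extension of 112 bases (chromosome 1, minus strand, 228296850 to 228297013). With the far acceptor, which makes an intron of 942 bases, the event had 143, 143 and 108 against 132, 136 and 132 reads. Its ratio rose from 3.00 ± 0.232 to 4.47 ± 0.667 (SD, n = 3 each; log2 change 0.58, SE 0.125, edgeR adjusted p = 0.0209). With the near acceptor and an intron of 239 bases it had 114, 104 and 108 against 247, 229 and 220 reads, and the ratio fell from 5.20 ± 0.085 to 3.71 ± 0.408 (-0.49, SE 0.104, edgeR adjusted p = 0.0199). Both share 1 SE sum, of 2795, 3178 and 2855 against 4828, 4405 and 4162, lower in every library labelled KDM4B. Event reads with the far acceptor overlapped between the groups, so its higher ratio went with the lower SE sum. Those with the near acceptor were lower in every library labelled KDM4B. Each call held in 2 of the 6 fits that left out a library. On the far acceptor the recovered junction of the long form had 85, 96 and 74 against 59, 70 and 60 reads, and that of the short form 14, 11 and 4 against 3, 8 and 6.

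CTNND1, the catenin that binds the juxtamembrane part of cadherins, had 6 tested events at 1 exon (chromosome 11, plus strand, 57529234 to 57529591), made of extensions of 51 or 73 bases and introns of 26990 to 33530 bases. Only the event with most reads was called. It had 211, 225 and 210 against 249, 218 and 248 reads and ratios of 4.64, 4.86 and 4.42 against 6.39, 5.81 and 6.17 (log2 change -0.40, edgeR adjusted p = 0.0203, kept in 1 of 6 fits, and -0.20 against the gene's FPKM). The other 5 lay between -0.36 and 0.07, and their ratios overlapped between the groups.

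In ATP5J, which encodes coupling factor 6 of the mitochondrial ATP synthase, all 11 tested events lay above 0, from 0.05 to 0.46 with a median of 0.34. They overlap one another and share 1 SE sum. Its 3 called events changed by 0.46, 0.40 and 0.38 (edgeR adjusted p from 0.037 to 0.0487) at extensions of 326, 462 and 376 bases, and leaving out 1 library left 1 of these calls in 1 fit and none in the others. The event at 326 bases had 183, 175 and 218 against 180, 157 and 123 reads. MAMDC4 showed the opposite: its 9 tested events ran from -0.60 to 0.84 with a median of -0.26, and 2 lay above 0. METTL23 (7 events, -0.22 to 0.05), NMRAL1 (7 events, -0.20 to 0.06) and YIF1B (6 events, -0.16 to 0.07) had no called event and a narrow range. SLC35B3 had 4 tested events of 6, between -0.64 and -0.28, with 0 called.

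A retained intron event on the intron that starts at the upstream donor was present for 52 of the 824 events. In 48 pairs both could be tested, and in 41 of them the log2 changes had the same sign. Reads in the extension can enter both counts and the SE sum is shared, so this is a description only. Pairs can also share a retained intron event, as in ECHDC2 and NPIPA1, so they are not separate observations. The 6 called events with such a partner lay in ECHDC2 (3), MAMDC4, MAPK8IP3 and TAF1D. Of all tested retained introns 15.3% were called, and in each of these 6 pairs the retained intron was called in the same direction. In MAPK8IP3 it changed by -0.61 (edgeR adjusted p = 0.000434) beside -0.49 for the A5SS event. TAF1D stood at 0.38 (adjusted p = 0.00492) beside 0.47, and MAMDC4 at 0.33 (adjusted p = 0.0436) beside 0.84.

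The tested events were also counted by gene families set from symbol patterns, to be read against the 5.71% called among all 701. None of 13 tested events in RNA processing genes, 37 in zinc finger genes and 5 in translation genes was called. Among 22 events of mitochondrial genes 4 were higher and 1 lower, from ATP5J and MRPL55 alone. Of 19 events in genes of chromatin and transcription cofactors 3 were higher, all of TAF1D. Membrane traffic genes had 2 higher of 21 (SEC23B and VPS51), ubiquitin genes 1 lower of 23 (USP4), DNA repair genes 1 lower of 11 (RFC5) and kinase pathway genes 1 lower of 11 (MAPK8IP3). Transporter genes had 4 higher of 38, which were the 3 ATP5J events, also counted as mitochondrial, and SLC37A4. With at most 5 calls per family these counts rest on 1 or 2 genes each, and the patterns leave out ECHDC2, MTRF1L, ARIH2, LTN1 and C16orf62, described above.

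Genes that take part in splice site choice had 4 tested events themselves, and 0 passed edgeR's test at an adjusted p of 0.05. HNRNPM, an hnRNP of splicing repression, had 1000, 1039 and 1013 against 812, 799 and 847 reads at 153 bases. Its ratios of 13.6, 13.9 and 14.6 against 14.9, 14.7 and 15.7 did not overlap (-0.10, adjusted p = 0.472). CLK1, a kinase of SR proteins, gave -0.16 (adjusted p = 0.663) at 1113 bases and HNRNPU 0.02 (adjusted p = 0.971) at 57 bases. No event of the KDM4 genes was tested.

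In the list of genes whose splice variants are studied in prostate tumours, 14 events were tested, with 6 of CTNND1 and 3 of VEGFA among them. Of the 14, 2 were lower (14.3%, VEGFA and CTNND1, above), against 2.85% lower among all 701 tested events. The list was chosen with earlier results of these data known, and these shares were not compared by a test. The calls of VEGFA and CTNND1 each held in 1 of the 6 fits that left out a library. PKM, the pyruvate kinase, had 2917, 2953 and 2706 against 2059, 1904 and 1960 reads at 220 bases. Its ratios stayed between 28.2 and 30.2 against 27.8 and 28.1 (0.06, adjusted p = 0.594), with both counts higher under the KDM4B label; the FPKM of PKM were 477.89, 496.8 and 481.66 against 371.94, 367.01 and 359.74. PPFIA2, a liprin, gave -0.05 (adjusted p = 0.917). The 3 events with most reads were 2 of the ECHDC2 events and 1 of STEAP2. STEAP2, a metalloreductase abundant in prostate, had 3461, 3682 and 3579 against 3075, 3756 and 3824 reads at 4558 bases and a change of 0.22 (adjusted p = 0.173).

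Levels of the genes that recognise donor sites were compared in the FPKM table with limma on log2(FPKM + 1), a scale that understates the change of low genes. Of 12148 tested genes 73.7% passed an adjusted p of 0.05 as deposited, 13.4% higher and 60.3% lower, with a median log2 change of -0.22. After median-of-ratios scaling 34% were higher and 34% lower and the median was 0.00, so directions of small changes depend on the scaling. Of the 26 genes of the U1 snRNP and donor recognition, 6 were higher and 7 lower as deposited, with a median of 0.00, and 20 and 2 after scaling, with a median of 0.23. SNRNP70, the U1 protein that binds the first stem-loop of U1 snRNA, had 77.93, 81.37 and 69.52 FPKM under the KDM4B label and 56.41, 60.77 and 57.83 with the vector. The groups did not overlap, and the mean was 76.3 ± 6.10 against 58.3 ± 2.22 (SD, n = 3 each; log2 change 0.38 as deposited, limma adjusted p = 7.03e-05). SNRPD2, an Sm core protein, had 151 against 126 (0.26), DDX23, a helicase of the U5 snRNP, 41.9 against 35.9 (0.22) and PRPF8, the U5 scaffold, 105 against 92.3 (0.18). These 4 were higher under both scalings. PRPF40B, a U1-associated protein, was lower under both (9.78 against 14.6 FPKM, -0.53 and, scaled, -0.31), as was LUC7L2 (32.5 against 46.0 FPKM, -0.50 and, scaled, -0.26). NSRP1 and SNRNP27 fell by 0.38 each as deposited and gave -0.15 each after scaling, which did not pass.

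**Figure D5:**
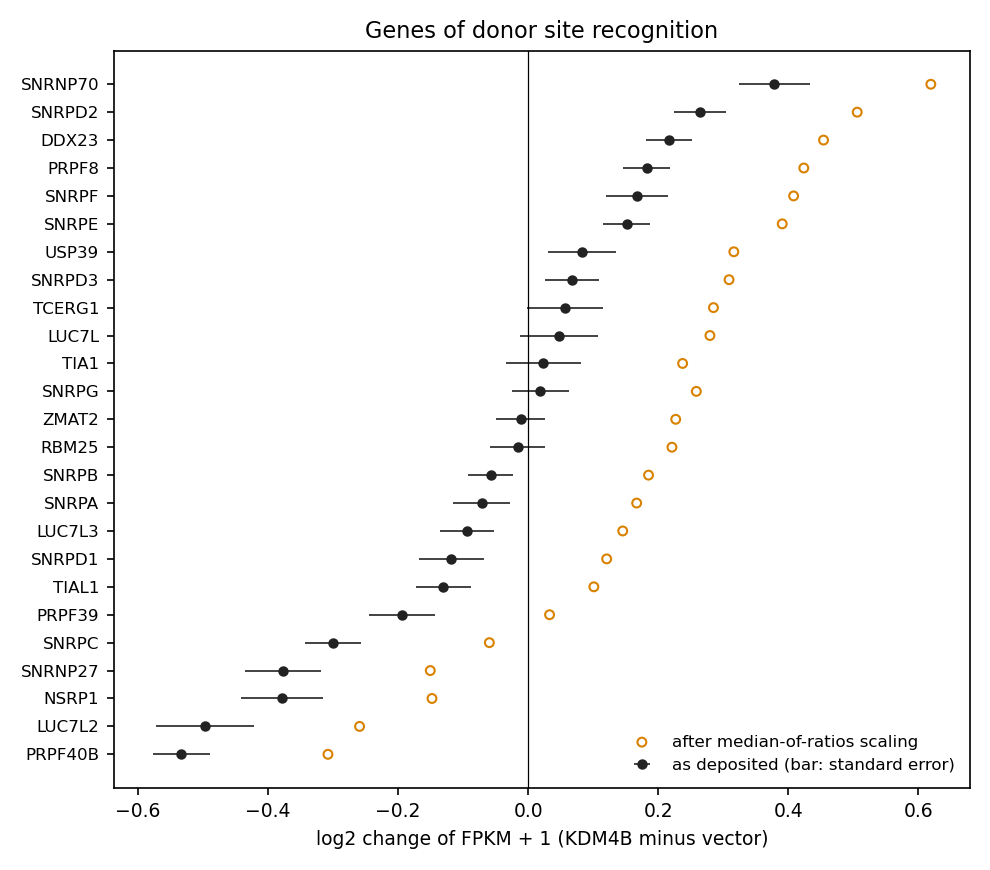
The log2 change of FPKM + 1 (libraries labelled KDM4B minus vector libraries) of 25 of the 26 genes of donor site recognition, as deposited with its standard error (filled) and after median-of-ratios scaling (open). SNRNP70 is highest and PRPF40B lowest under both, and scaling shifts every gene shown to the right.

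Of 47 regulators of splice site choice 45 were tested, with 9 higher and 23 lower as deposited (median -0.09) and 26 and 6 after scaling (median 0.15). ESRP1, an epithelial splicing regulator, had the largest fall. It stood at 17.24, 17.4 and 18.62 FPKM under the KDM4B label and at 52.62, 48.47 and 48.79 with the vector (log2 change -1.44, SE 0.047, limma adjusted p = 4.35e-10; scaled -1.21). CLK1 (-0.45), SRSF11 (-0.45) and MBNL1 (-0.44) were lower as well, under both scalings. Called rises included those of SFPQ, at a mean of 117 against 71.3 FPKM (0.71), NOVA1 4.01 against 2.26 (0.62) and HNRNPM 136 against 103 (0.40). How these levels relate to the events was not tested.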

How the data were processed

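RNA of 6 LNCaP libraries was sequenced. The authors deposited read counts per splicing event, unnormalised and whole, and FPKM per gene; the submitters' processing notes name HISAT, StringTie, Cufflinks, GRCh38 and hg38 without a role, and no source used here gives the event caller, its annotation or the strand setting. Counts join both forms of an event. A5SS event counts summed to 252082 to 265622 reads in the libraries labelled KDM4B and 302410 to 314033 in the vector libraries, over events that can share reads.

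Each event count and the summed SE counts of its gene were fitted in edgeR 4.0.16 (glmQLFit, glmQLFTest; R 4.3.3) over all 6 libraries, with terms for library, count type and count type by group, for events with means of at least 10 reads in both counts, and p-values were adjusted over all 1093 events by Benjamini-Hochberg. Junction counts were recovered through 3247 sets that joined 2 SE events with 1 MXE event, 2 of which were left out, and the short form was tested against the event's remaining reads. FPKM were tested with limma 3.58.1 (trend) as log2(FPKM + 1), leaving out genes whose mean was under 1. Replicates differed by more than sampling noise (chi-square per degree of freedom 2.00 to 2.54 within groups, 12.0 to 13.6 between). On simulated data with 200 changed events, 62% of log2 changes of 0.5 and 89% of changes of 1 were recovered among 1093 events, with 0.896% of unchanged events called; limma recovered 90% and 100% among 12148 genes.

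Named events were the 10 largest called rises and falls with at least 20 reads on average and no overlap of the groups, 1 event per gene in each direction, all tested events of the fixed gene lists, and the 3 events with most reads; of the FPKM lists, up to 4 called genes in each direction. The events and lists were chosen with earlier results of these data known. Alternatives were other filters, TMM centring, DESeq2 1.42.0, other references, a replicate block, another pseudocount and scaling, and each library left out. No sequence is printed, since no genome of the positions' build was used here. A few items that the rule for named events and genes would name are not reported here.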

Additional observations from a re-analysis of the deposited data

How the results depend on the processing

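The 40 calls (20 higher, 20 lower) became 14 (9 and 5) with DESeq2, 17 (10 and 7) with DESeq2 and its own size factors, 19 (9 and 10) with the most-read SE event as reference, 18 (10 and 8) with the gene's FPKM as reference and 240 (96 and 144) with no reference, where changes of the gene's level enter. They numbered 34 to 39 under the other filters and TMM centring, and 36 of 492 events with SE events elsewhere in the gene, an alternative chosen after seeing the data. Leaving out 1 library gave 10 to 36 calls, 3 to 16 higher and 7 to 20 lower. With a replicate block on the numbers 1 and 2 that both groups share, 0 events passed in edgeR, 0 higher and 0 lower. The lowest adjusted p was 0.228, and 89 events had an unadjusted p under 0.05. The ratios of same-numbered libraries did not deviate together (r = -0.01 and 0.05 across 701 events). With only 2 such pairs this cannot show whether the libraries were prepared as pairs. With no reference the sign turned in GTPBP2 (-2.23), SYTL1 (-0.79), SEC23B (-0.015), SAMD11 (0.075), MAPK8IP3 (0.080), CTNND1 (0.10), HNRNPM (0.56) and PPFIA2 (0.54), and against the most-read SE event in SYTL1 (-0.11); the cause was not tested. Scaling FPKM moved the U1 and donor list to 20 higher and 2 lower and the regulators to 26 and 6. Depth limits the 171 events under 50 reads, and intervals of reads that share fragments cover counting error and the spread of these libraries only.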
